A study of Mus musculus with 6 samples.

Results

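The proteasome genes described here are the 48 of 24984 gene symbols in the count tables that name a proteasome subunit, activator, inhibitor or assembly chaperone, that is Psma, Psmb, Psmc, Psmd, Psme, Psmf or Psmg followed by a number. They were picked out by symbol alone, but the family was chosen with earlier results of these data known. Of the 48, 47 passed the filter on low counts. RNA was sequenced from inguinal white fat, which lies under the skin, of Mpst knockout mice (3 libraries) and wild-type mice (3 libraries), all fed a high-fat diet. MPST is a sulfurtransferase that makes hydrogen sulfide. The labels give no age, sex or strain, do not say whether the deletion covers the whole body, and name replicates without saying that each is a separate animal, so p-values measure the spread between these libraries, which may be technical.

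Counts in genes ranged from 8054560 to 22458630 per knockout library and from 17394489 to 21576075 per wild-type library, and proteasome genes took 0.526% to 0.615% and 0.571% to 0.657% of them. Mpst itself averaged 0.393 ± 0.042 CPM (counts scaled to library size) in knockout and 81.1 ± 5.01 CPM in wild type (SD, n = 3 each), and no knockout library came near a wild-type one. The 8 adipocyte markers were all present and summed to 33925 to 42500.3 CPM in knockout and 52927 to 63022 CPM in wild-type libraries. Skeletal muscle markers were uneven, with sums of 35.7, 31.4 and 1562 CPM in knockout replicates 1, 2 and 3 and of 34.4, 659.7 and 126 CPM in wild-type replicates 1, 2 and 3.

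The proteasome degrades proteins that carry ubiquitin chains. Its core is a barrel of alpha rings, which gate the entrance, around beta rings, which hold the proteolytic sites, and its cap is a regulatory particle of ATPases and other subunits that bind, unfold and feed in substrates. The beta subunits Psmb5 (chymotrypsin-like), Psmb6 (caspase-like) and Psmb7 (trypsin-like) carry the active sites. Interferon gamma induces Psmb8, Psmb9 and Psmb10, which take their places in the immunoproteasome of immune and inflamed cells and favour peptides for MHC class I molecules. When proteasome activity is short, the transcription factor NFE2L1 raises the subunit genes together through antioxidant response elements in their promoters.

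Promoters of 5 catalytic subunits are shown because inducible and constitutive subunits are known for different control and are compared below. RefSeq start sites on GRCm38.p6 gave 43 windows of 300 bases for 40 of the 48 genes. Each runs from 250 bases before the start to 50 bases from it on, 5′ to 3′ on the gene's strand. Capitals mark matches on either strand to the core of the interferon-stimulated response element or to the antioxidant response element TGANNNNGC.
Psmb8 (chr17:34197945-34198244, plus strand): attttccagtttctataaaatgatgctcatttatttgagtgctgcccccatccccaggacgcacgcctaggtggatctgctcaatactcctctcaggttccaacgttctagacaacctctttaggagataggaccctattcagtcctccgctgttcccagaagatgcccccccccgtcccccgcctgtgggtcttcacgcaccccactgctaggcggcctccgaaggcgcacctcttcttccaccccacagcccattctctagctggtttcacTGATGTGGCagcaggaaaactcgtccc
Psmb9 (chr17:34187281-34187580, minus strand): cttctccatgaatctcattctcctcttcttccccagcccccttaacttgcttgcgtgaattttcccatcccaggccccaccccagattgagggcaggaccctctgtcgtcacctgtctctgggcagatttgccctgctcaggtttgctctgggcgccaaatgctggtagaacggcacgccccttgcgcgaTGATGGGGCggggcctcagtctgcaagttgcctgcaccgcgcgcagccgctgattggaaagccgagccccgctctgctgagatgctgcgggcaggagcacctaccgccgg
Psmb10 (chr8:105938343-105938642, minus strand): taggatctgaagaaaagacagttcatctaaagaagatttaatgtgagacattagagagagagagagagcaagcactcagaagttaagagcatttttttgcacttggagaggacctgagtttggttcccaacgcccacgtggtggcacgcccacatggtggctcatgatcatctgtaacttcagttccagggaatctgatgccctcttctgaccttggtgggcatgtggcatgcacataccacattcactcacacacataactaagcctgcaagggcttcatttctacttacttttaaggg
Psmb5 (chr14:54617946-54618245, minus strand): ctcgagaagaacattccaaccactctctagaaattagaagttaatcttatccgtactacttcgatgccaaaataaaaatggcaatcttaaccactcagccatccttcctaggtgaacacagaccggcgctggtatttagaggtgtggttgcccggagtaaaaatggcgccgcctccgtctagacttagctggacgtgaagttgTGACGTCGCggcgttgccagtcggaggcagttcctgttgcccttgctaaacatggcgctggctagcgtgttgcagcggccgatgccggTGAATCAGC
Psmb6 (chr11:70525107-70525406, plus strand): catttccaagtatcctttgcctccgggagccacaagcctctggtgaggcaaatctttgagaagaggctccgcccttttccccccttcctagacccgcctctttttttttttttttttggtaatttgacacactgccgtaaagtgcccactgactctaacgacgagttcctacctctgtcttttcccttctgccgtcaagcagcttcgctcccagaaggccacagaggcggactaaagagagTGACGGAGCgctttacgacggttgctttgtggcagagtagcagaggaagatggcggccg
Psmb8 held an antioxidant response element at 23, counted from the start base as 0. Psmb9 held one at −60, Psmb5 at −47 and 41, and Psmb6 at −9, with no overlap between these matches. The Psmb10 window held neither of these letter patterns. Over all 32851 promoter windows of this length, 3.44% held the interferon core and 41.3% the antioxidant element. Among the 43 proteasome windows 5 held the interferon core and 25 the antioxidant element. The interferon core was found in windows of Psmb3, Psmd4, Psmd9, Psme1 and Psmg4, and in none of the 5 windows shown. A match is a string of letters and was not tested as a binding site.

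No proteasome gene passed the main test between the genotypes. In edgeR's quasi-likelihood test, at an adjusted p under 0.05, 0 of 47 members were higher in the knockout and 0 were lower. The same rule called 7.41% of all 14065 tested genes, 4.76% as higher and 2.65% as lower. At an unadjusted p under 0.05, 1 member was higher and 8 were lower (2.13% and 17.0% of members), beside 14.9% and 12.7% of all genes. DESeq2 called 0 members higher and 2 lower, Psme1 and Psmg4, beside 7.60% and 6.33% of all genes, and limma-voom called 0, beside 7.64% of all genes in either direction. With the replicate number as a block, edgeR called 0 members higher and 12 lower, beside 9.86% and 9.16% of all genes. The 12 were Psma7, Psmb1, Psmb2, Psmb3, Psmb4, Psmb6, Psmb10, Psmd4, Psmd13, Psme1, Psmg1 and Psmg4. Whether same-numbered libraries pair is not known.

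Small fold changes below 0 prevailed. The median log2 fold change over the members was −0.23, beside 0.01 over all tested genes, and 39 of 47 members (83.0%) lay below 0, beside 49.5% of all genes. The knockout libraries all lay above the wild-type libraries in 2 members and all below in 13 (4.26% and 27.7% of members), beside 17.8% and 15.5% of all genes. The members' median depended on single libraries. It was −0.13 without knockout replicate 3, −0.14 without wild-type replicate 2, and −0.072 without both, the libraries highest in muscle transcripts of each genotype. Over all members this pair also held the lowest knockout mean log2 CPM and the highest wild-type one (−0.36 and 0.12, less that of wild type). Leaving it out thus lessens the difference whatever its muscle content. Without that pair the median of the constitutive beta ring was −0.15, that of the cap −0.02 and that of the inducible subunits −0.32, and the median of the non-ATPase cap subunits turned to 0.05. Without wild-type replicate 3, Psmb2, Psmb3, Psmb6, Psmb10, Psme1 and Psmg4 were called lower, 6 of 47 beside 8.22% of all genes, and none was called higher, beside 10.1%. The part of muscle RNA in the fold changes was not tested.

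**Figure D1:**
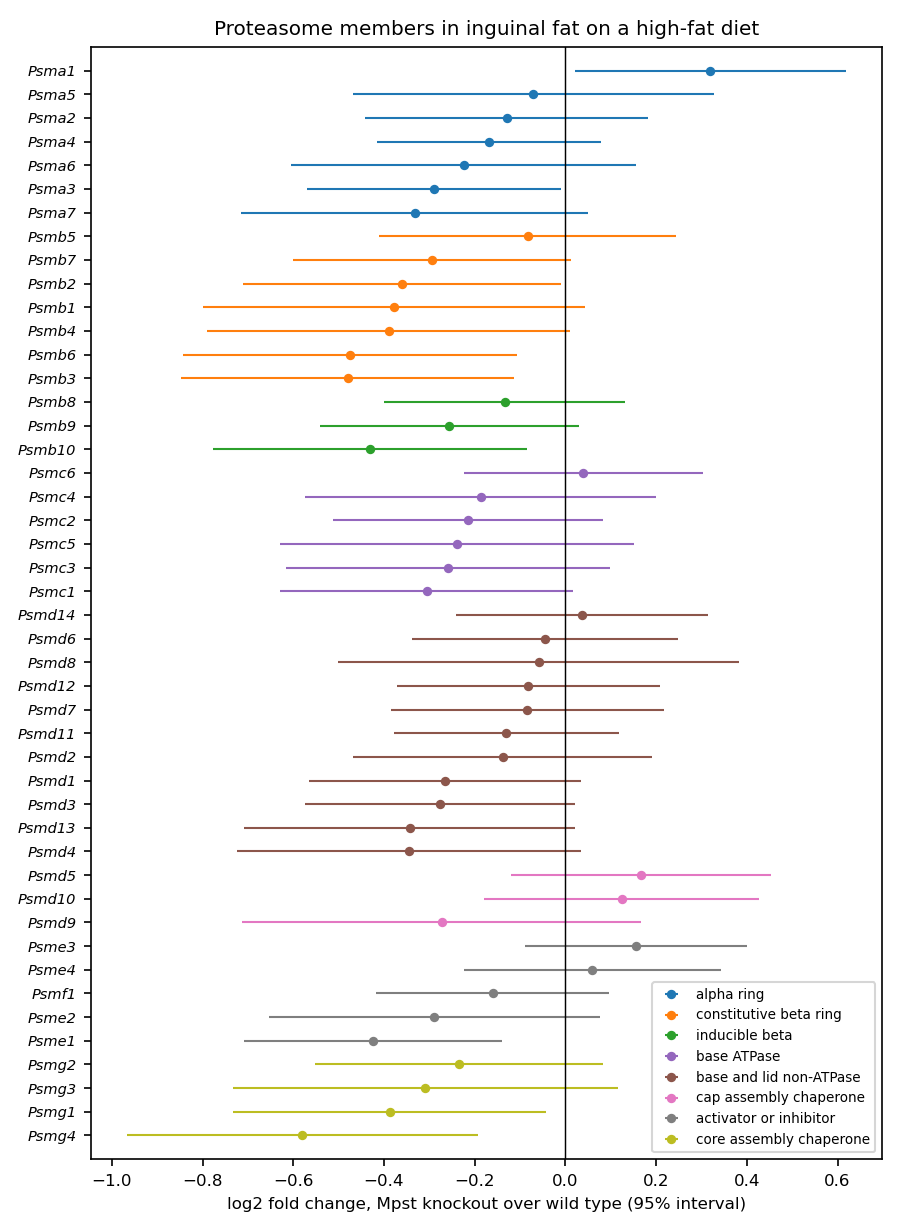
Log2 fold change of 46 proteasome genes, Mpst knockout over wild type (x axis), one gene per row and coloured by role, from edgeR's fit on 3 libraries per genotype. Points are estimates and bars 95% intervals. Psma8, of few counts, and Psmb11, not tested, are left out. Psma1 at 0.32 stands right of 0 and Psmg4 at −0.58 farthest to the left.

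The alpha ring was the most mixed of the main parts, with 1 of 7 members higher at an unadjusted p under 0.05 and 1 lower, beside 14.9% and 12.7% of all genes. Psma1 stood at 237, 234 and 192 CPM in the knockout libraries and at 164, 191 and 177 CPM in the wild-type libraries. The lowest knockout library was just above the highest wild-type one. Its log2 fold change of 0.32 (SE 0.13, adjusted p = 0.157) was the highest of the 14 core subunits, with a 95% interval of 0.02 to 0.62. Psma3 stood at 135, 149 and 121 CPM in knockout and 157, 177 and 161 CPM in wild type, without overlap (−0.29, SE 0.12, adjusted p = 0.167). Psma7 had the lowest fold change of the ring, with 158, 159 and 120.1 CPM in knockout against 205, 197 and 148 CPM in wild type (−0.33, SE 0.17, adjusted p = 0.236). The groups overlapped through wild-type replicate 3. Psma2, Psma4, Psma5 and Psma6 had log2 fold changes from −0.22 to −0.07. Psma1 was thus the only alpha subunit above 0 among the 7, and it stayed above 0 in all 17 other settings tried (0.25 to 0.47).

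The constitutive beta ring had the lowest median of the core and cap parts, −0.38 over its 7 members, all below 0. Psmb3, a structural subunit without a proteolytic site, stood at 108, 114 and 79.9 CPM in knockout and 151, 149 and 121 CPM in wild type. These groups did not overlap (log2 fold change −0.48, SE 0.16, adjusted p = 0.0989). Psmb1, Psmb2 and Psmb4, also without a proteolytic site, had log2 fold changes from −0.39 to −0.36 (adjusted p from 0.172 to 0.222), and their groups overlapped. Psmb1, Psmb2, Psmb3 and Psmb4 were each called lower by edgeR with the replicate number as a block (adjusted p from 0.0152 to 0.0338), beside 9.16% of all genes. The ring's median was −0.23 without knockout replicate 3.

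Among the constitutive catalytic subunits, Psmb6 stood at 179.8, 201 and 140.0 CPM in knockout and 246, 267 and 212 CPM in wild type. Every knockout library was below every wild-type library (log2 fold change −0.48, SE 0.16, adjusted p = 0.102). In edgeR, Psmb6 was called lower with the replicate number as a block (adjusted p = 0.0156) and without wild-type replicate 3 (adjusted p = 0.0341). That block did not call Psmb5 or Psmb7. Psmb7 also showed no overlap, with 183, 187 and 161 CPM in knockout against 221, 242 and 188 CPM in wild type (−0.29, SE 0.14, adjusted p = 0.195). Psmb5 overlapped widely. It stood at 94.1, 98.3 and 70.8 CPM in knockout and 93.5, 98.5 and 86.7 CPM in wild type (−0.08, SE 0.14, adjusted p = 0.748). Of the 75-base stretches of Psmb5 transcripts, 32.9% also occur in the processed pseudogene Gm3375, so part of its reads cannot be placed uniquely, and exons of Psmb7 overlap those of Nek6 over 11.8% of their length.

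None of the inducible subunits was called between the genotypes, and all 3 had log2 fold changes below 0. Psmb8 stood at 109.6, 124 and 114 CPM in knockout and 123, 119 and 139 CPM in wild type (log2 fold change −0.13, SE 0.12, adjusted p = 0.497). Psmb9 stood at 50.6, 55.0 and 53.9 CPM in knockout and 58.6, 58.5 and 73.3 CPM in wild type, without overlap (−0.26, SE 0.13, adjusted p = 0.222). Psmb10 stood at 130.0, 143 and 121 CPM in knockout and 205, 182 and 144.0 CPM in wild type (−0.43, SE 0.15, adjusted p = 0.110). The Psmb10 groups were separated only by the narrow gap between knockout replicate 2 and wild-type replicate 3. Without that wild-type library edgeR called the gene lower (adjusted p = 0.0178, within a range of 0.0178 to 0.488 over the 17 other settings). It also called Psmb10 lower with the replicate number as a block (adjusted p = 0.0351). With each library's trend on exon length and GC content taken out, as described below, Psmb8 was at −0.05, Psmb9 at −0.19 and Psmb10 at −0.14. The upper ends of the 95% intervals were 1.10-fold for Psmb8, 1.02-fold for Psmb9 and 0.943-fold for Psmb10, so a rise above 1.10-fold lay outside all 3 intervals. Psmb8 (chromosome 17, 34197721 to 34201454, plus strand, GRCm38) and Psmb9 (34181987 to 34187764, minus strand) lie in the MHC beside the peptide transporter genes Tap1 and Tap2. Exons of Psmb9 overlap those of Tap1 over 5.79% of their length, and exons of Psmb8 those of the antisense gene Gm20496 over 14.7%, and the libraries do not mark strand.

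**Figure D2:**
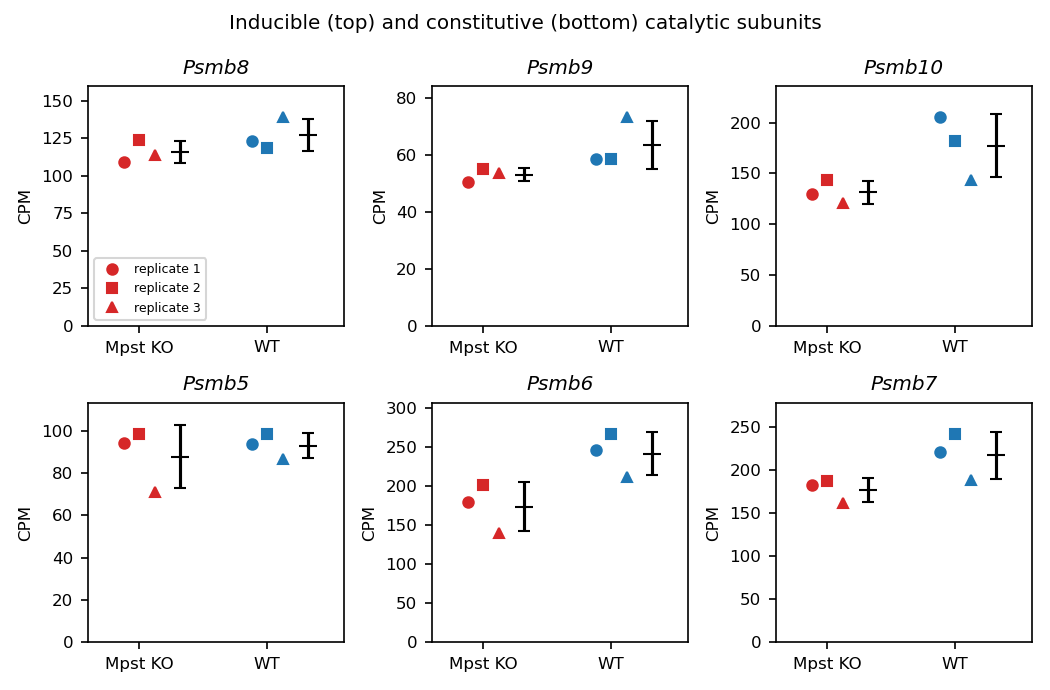
CPM (y axis, from 0) of the inducible catalytic subunits (top row) and their constitutive counterparts (bottom row) in each library, Mpst knockout left and wild type right of each panel. Symbols mark replicates and the bar the mean ± SD of 3 libraries. Psmb6, Psmb7, Psmb9 and Psmb10 do not overlap between the genotypes, Psmb5 and Psmb8 do.

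Each inducible subunit was then set against the constitutive one whose place it takes, as the log2 ratio of their counts within a library. Taken from the mean of the wild-type libraries, Psmb8 to Psmb5 was −0.23, −0.12 and 0.24 in knockout replicates 1, 2 and 3 and −0.05, −0.18 and 0.23 in wild-type replicates 1, 2 and 3. The difference of −0.04 was far inside this spread (exact two-sided permutation test, p = 0.8 before and after adjustment over 3 pairs), and its sign turned without wild-type replicate 3, knockout replicate 1 or knockout replicate 2. Psmb9 to Psmb6 was 0.10, 0.06 and 0.55 in knockout and −0.14, −0.26 and 0.40 in wild type, a difference of 0.24 (exact p = 0.4, adjusted 0.6). It was 0.079 without knockout replicate 3, 0.11 without wild-type replicate 2, and turned to −0.05 without both, the muscle-rich libraries. These held the highest knockout and the lowest wild-type ratio, so leaving them out lowers the difference whatever their muscle content. Psmb10 to Psmb7 was −0.19, −0.08 and −0.12 in knockout and 0.20, −0.11 and −0.09 in wild type, a difference of −0.13 (exact p = 0.3, adjusted 0.6), and of −0.03 without wild-type replicate 1. No ratio separated the genotypes, and with 3 libraries against 3 the smallest p that this test can give is 0.1. For Psmb8 to Psmb5 and for Psmb9 to Psmb6 replicate 3 was the highest library of both genotypes. The ratios were not corrected for each library's trend on exon length and GC content. With that trend taken out, as described below, log2 fold changes were −0.05 for Psmb8 and 0.29 for Psmb5. Psmb6 was then at −0.30 and Psmb10 at −0.14, and the lowest value of Psmb7 over the 17 other settings was −0.47. The differences given here thus hold only for ratios without that correction.

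Per kilobase of coding-transcript exon, the inducible member made up 42.4% ± 4.14 of the Psmb8 and Psmb5 transcripts in knockout and 43.0% ± 3.59 in wild type (SD, n = 3 each). It made up 15.5% ± 2.58 of Psmb9 and Psmb6 in knockout and 13.6% ± 2.96 in wild type. For Psmb10 and Psmb7 it was 39.6% ± 0.925 in knockout and 41.8% ± 2.89 in wild type. Psmb9 had the lowest share of the 3 in both genotypes. The shares depend on the exons counted. With all annotated exons the Psmb8 share was 26.2% in knockout and 26.7% in wild type, and the Psmb10 share 59.8% and 61.9%.

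**Figure D3:**
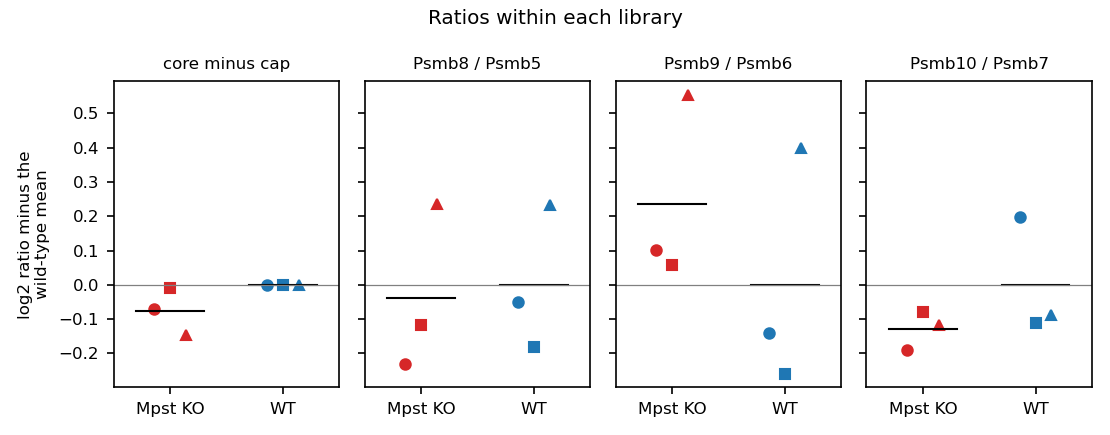
Log2 ratios within each library minus the wild-type mean (y axis) for mean core minus mean cap level and for 3 pairs of inducible and constitutive subunits. Red is Mpst knockout, blue wild type, circles, squares and triangles are replicates 1, 2 and 3, and lines are means of 3 libraries. The pairs overlap between the genotypes, and the core minus cap value is lower in each knockout library by 0.01 to 0.15.

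The cap stood closer to no change than the core as a whole, but not than the core's alpha ring, whose median log2 fold change was −0.17. Its 17 members were the ATPases Psmc1 to Psmc6 and the non-ATPase subunits Psmd1 to Psmd4, Psmd6 to Psmd8 and Psmd11 to Psmd14. Their median log2 fold change was −0.19, and in the main fit none was called at an adjusted or an unadjusted p under 0.05. The core, Psma1 to Psma7 and Psmb1 to Psmb7, had a median of −0.29 over 14 members, with 1 higher and 4 lower at an unadjusted p under 0.05 (7.14% and 28.6%, beside 14.9% and 12.7% of all genes). Mean log2 CPM of the core minus that of the cap, set against wild type, was −0.07, −0.01 and −0.15 in knockout replicates 1, 2 and 3. In wild-type libraries its SD was 0.001, although core and cap each ranged from −0.18 to 0.13 between them. Knockout replicate 2 was nearly at the wild-type value. The difference was −0.08, and −0.04 without knockout replicate 3. No p is given for it, since it is a score over chosen members.

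Among the ATPases, which unfold the substrate, Psmc1 stood at 147, 147 and 124 CPM in knockout and 170, 198 and 148 CPM in wild type (log2 fold change −0.31, SE 0.14, adjusted p = 0.201). A narrow gap separated the groups. Psmc6 was on the other side of 0, with 91.5, 95.3 and 87.3 CPM in knockout against 81.6, 86.7 and 98.1 CPM in wild type (0.04, SE 0.12, adjusted p = 0.854). The other 4 ATPases lay between −0.26 and −0.19. Among the non-ATPase subunits, Psmd4, a receptor for ubiquitin chains, had the lowest value, with 241, 252 and 186 CPM in knockout against 304, 319.7 and 237 CPM in wild type (−0.34, SE 0.17, adjusted p = 0.216). Psmd13, a lid subunit, stood at 172, 178 and 130.3 CPM in knockout and 212, 225 and 173 CPM in wild type (−0.34, SE 0.16, adjusted p = 0.201). Both overlapped through wild-type replicate 3. With the replicate number as a block edgeR called both lower (adjusted p = 0.0378 for Psmd4 and 0.0364 for Psmd13), beside 9.16% of all genes. Psmd14, the deubiquitinase of the lid, had 105, 91.2 and 85.9 CPM in knockout and 89.6, 98.7 and 86.8 CPM in wild type (0.04, SE 0.12, adjusted p = 0.875), with full overlap. The other 8 lay between −0.28 and −0.05, among them the large scaffold subunits Psmd1 at −0.27 and Psmd2 at −0.14.

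Core assembly chaperones, which pair and order the subunits of the barrel, had the lowest median after the constitutive beta ring. All 4 were below 0, with a median of −0.35, and 2 were lower at an unadjusted p under 0.05, beside 12.7% of all genes. Psmg4 had the lowest fold change of all members, with 17.05, 18.4 and 12.6 CPM in knockout against 25.9, 24.4 and 21.5 CPM in wild type. No libraries overlapped (log2 fold change −0.58, SE 0.17, adjusted p = 0.0708). DESeq2 called Psmg4 lower (adjusted p = 0.0366), as did edgeR without wild-type replicate 3. Over the 17 other settings the adjusted p ran from 0.0196, in edgeR with the replicate number as a block, to 0.456. With the length and GC trend described below taken out, Psmg4 was at −0.17. Psmg1 stood at 38.2, 33.2 and 27.2 CPM in knockout and 42.1, 47.8 and 38.6 CPM in wild type (−0.39, SE 0.15, adjusted p = 0.140). Psmg2 and Psmg3 were at −0.23 and −0.31, with overlap. The chaperones of the cap base lay on both sides of 0. Psmd5 stood at 41.0, 35.2 and 36.9 CPM in knockout and 30.9, 37.5 and 32.2 CPM in wild type (0.17, SE 0.13, adjusted p = 0.430). Psmd10 (gankyrin) was at 0.12 and Psmd9 at −0.27, both with overlap, and 25.5% of the exon bases of Psmd9 are shared with the noncoding gene Gm26745.

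Of the activators that dock on the core in place of the cap, Psme1 and Psme2 form the interferon-inducible ring and Psme3 the nuclear one. Psme1 stood at 149.9, 140.5 and 128 CPM in knockout and 187, 204 and 169 CPM in wild type, with every knockout library below every wild-type one. Its log2 fold change was −0.42 (SE 0.13, adjusted p = 0.0720), DESeq2 called Psme1 lower (adjusted p = 0.0245), and so did edgeR without wild-type replicate 3. Over the 17 other settings its adjusted p ran from 0.0234, in edgeR with the replicate number as a block, to 0.436. Its log2 fold change was −0.24 with the length and GC trend taken out. Its partner Psme2 stood at 193, 224 and 160.4 CPM in knockout and 245, 259.9 and 200.3 CPM in wild type, with overlap (−0.29, SE 0.16, adjusted p = 0.279). In transcript sequence, 22.9% of the 75-base stretches of Psme2 also occur in its copy Psme2b, so its count is uncertain. Psme3 was the other member, beside Psma1, with all knockout libraries above all wild-type ones, at 76.5, 73.0 and 73.8 CPM in knockout and 61.7, 70.6 and 68.3 CPM in wild type (0.15, SE 0.11, adjusted p = 0.386). Psme4, an activator linked to chromatin and spermatogenesis, was at 0.06, and the inhibitor Psmf1 at −0.16, both with overlap.

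The tissue-restricted subunits were at or near the floor. Psmb11, the thymus-specific catalytic subunit, had no count in the knockout libraries and 1, 0 and 0 counts in wild-type replicates 1, 2 and 3, and was not tested. Psma8, the testis-specific alpha subunit, had 6, 16 and 17 counts in knockout and 13, 7 and 3 counts in wild type, or 0.715, 0.704 and 0.722 CPM against 0.797, 0.426 and 0.139 CPM. Its log2 fold change of 0.70 (SE 0.56, adjusted p = 0.450) had an interval from −0.56 to 1.96, so this depth does not settle its direction.

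Most members shared an order of libraries within each genotype. Replicate 3 was the lowest knockout library in 40 of 47 members and the lowest wild-type library in 37. Over all members the mean log2 CPM, less that of wild type, came to −0.09, −0.09 and −0.36 in knockout replicates 1, 2 and 3 and 0.05, 0.12 and −0.17 in wild-type replicates 1, 2 and 3. Knockout replicates 1 and 2 thus lay above wild-type replicate 3. The constitutive beta ring stood at −0.24, −0.19 and −0.64 in knockout against 0.07, 0.14 and −0.20 in wild type, and overlapped through knockout replicate 2 and wild-type replicate 3. Psmb8, Psmb9 and the ATPase Psmc6 were among the members outside this pattern in wild type, with replicate 3 the highest wild-type library of each. In knockout, replicate 3 was the lowest library for Psmc6 but not for Psmb8 or Psmb9. Median exon length was 2808 bases for members and 4355 for all tested genes. With each library's trend on length and GC content taken out, a setting chosen after seeing the data, the members' median was −0.18 and 1 member, Psma3, was called lower (−0.51, adjusted p = 0.0499), beside 3.37% of all genes called higher and 1.78% lower. Psmb5 was then at 0.29.

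**Figure D4:**
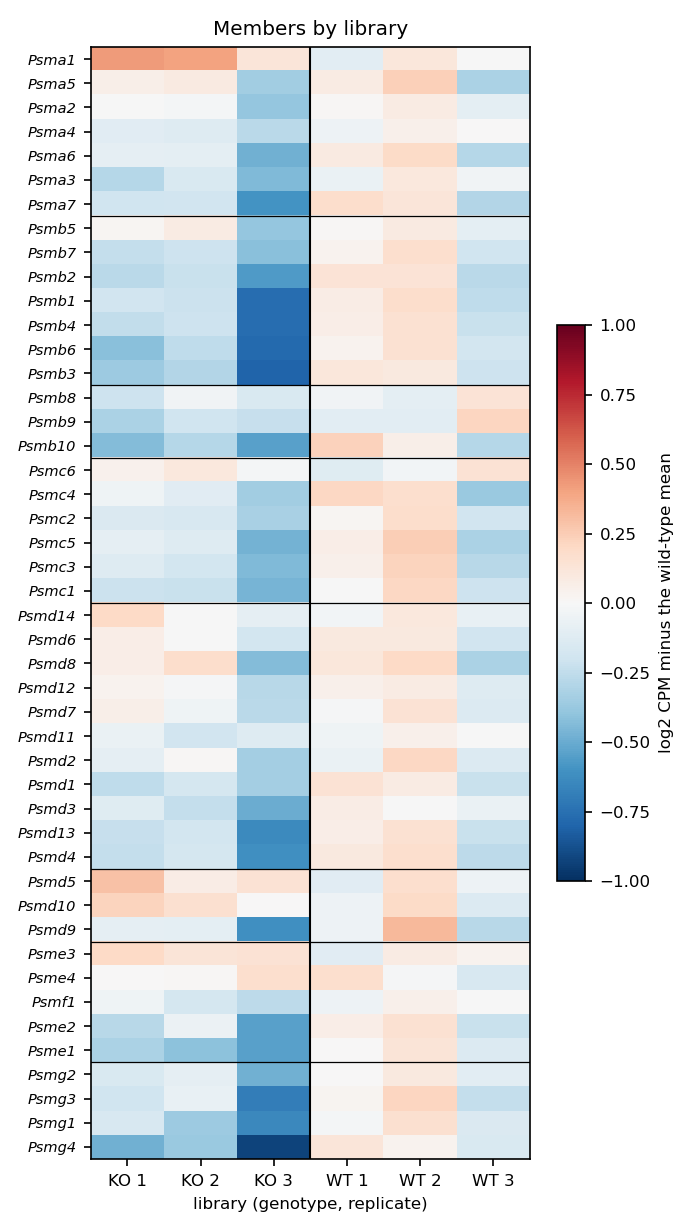
Log2 CPM of 46 proteasome genes minus the wild-type mean, coloured from −1 (blue) to 1 (red), with Mpst knockout libraries left and wild-type libraries right of the line, and genes grouped by role as in the plot of fold changes. Replicate 3 is the lowest column of its genotype for 40 of 47 tested genes in knockout and 37 in wild type, and Psma1 is red in every knockout library.

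Genes that work with the proteasome were followed in a list of 22, of which 21 were tested. Zfand5, an activator that binds the cap, was higher, with 85.5, 93.7 and 88.9 CPM in knockout against 53.5, 56.7 and 68.4 CPM in wild type (log2 fold change 0.59, SE 0.13, adjusted p = 0.0326), and none was lower. This 1 of 21 is near the 4.76% of all genes called higher, and DESeq2 called 2 higher and limma-voom 1. With the replicate number as a block edgeR called 3 higher and 1 lower, beside 9.86% and 9.16% of all genes. Zfand5 lost its call without each library in turn except wild-type replicate 3 (adjusted p from 0.0711 to 0.144). Its log2 fold change was 0.52 to 0.70 over the fits without a single library. Without wild-type replicate 2 or knockout replicate 1, 2 or 3 only 1, 46, 2 and 3 of all genes were called, so those losses say little of Zfand5 itself. It also lost its call with the length and GC trend taken out (0.19, adjusted p = 0.357, within a range of 0.00265 to 0.357 over all settings). The list's median was 0.07. Cap subunits outside the naming scheme of the members, Sem1 at −0.55 (adjusted p = 0.116) and the ubiquitin receptor Adrm1 at −0.30 (adjusted p = 0.197), were not called, nor was the core maturation factor Pomp at −0.31 (adjusted p = 0.359). Nfe2l1 itself stood at 494, 517 and 497 CPM in knockout and 531, 546 and 551 CPM in wild type (−0.11, SE 0.12, adjusted p = 0.585). These genes all lay below 0, but of the 21 only 9 did and 12 lay above. Above 0 were Nfe2l2 at 0.48 (adjusted p = 0.0603), Ngly1 at 0.55 (adjusted p = 0.111) and Rad23b at 0.37 (adjusted p = 0.0959), not called in the main fit. Sem1, Adrm1, Pomp, Nfe2l1, Nfe2l2, Ngly1 and Rad23b were picked with their values in view.

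The inducible subunits were also set beside genes of their setting. Of 12 genes of MHC class I peptide loading none was called by edgeR, DESeq2 or limma-voom, with 1 higher at an unadjusted p under 0.05 (8.33%, beside 14.9% of all genes), and the median was 0.08. B2m, the light chain of class I molecules, stood at 3831, 4447 and 3993 CPM in knockout and 3342, 3277 and 2704 CPM in wild type (log2 fold change 0.40, SE 0.16, adjusted p = 0.157), with no overlap. Of 22 interferon response genes 1 was higher and none lower in the main fit, near the 4.76% of all genes called higher, with a median of 0.27. At an unadjusted p under 0.05, 5 were higher and 2 lower (22.7% and 9.09%), beside 14.9% and 12.7% of all genes. DESeq2 called 2 higher and limma-voom 1. With the replicate number as a block edgeR called 6 of the 22 higher and 0 lower, beside 9.86% and 9.16% of all genes. The gene called in the main fit was Cxcl10, a chemokine gene, at 8.35, 9.86 and 13.8 CPM in knockout and 3.55, 3.34 and 6.18 CPM in wild type (1.29, SE 0.29, adjusted p = 0.0370). When each library was left out it was called again only without wild-type replicate 3 (adjusted p from 0.0796 to 0.153 in the other 5 fits, and from 0.00112 to 0.351 over all settings). Its log2 fold change was 1.06 to 1.65 over the fits without a single library. Few genes of any kind were called without wild-type replicate 2 or knockout replicate 1, 2 or 3 (1, 46, 2 and 3 of all genes), so those losses say little of Cxcl10 itself.

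Markers of other cell types were read in the same libraries. Of 10 macrophage genes 6 were called higher, beside 4.76% of all genes, and none lower, with a median log2 fold change of 0.90, and they summed to 1526 to 1609 CPM in knockout and 501 to 960.2 CPM in wild-type libraries. The 7 T cell genes summed to 26.4 to 51.7 CPM in knockout and 21.1 to 27.9 CPM in wild type, and the 5 dendritic cell genes to 55.1 to 64.3 and 19.9 to 33.8 CPM. None of these 12 was called by edgeR, where 4 were higher at an unadjusted p under 0.05, beside 14.9% of all genes. DESeq2 called 2 T cell and 1 dendritic cell gene higher, and limma-voom 1 dendritic cell gene. Of 4 fibroblast genes Dcn and Lum were called higher and none lower, with a median of 0.61, and the list summed to 1853 to 2079 CPM in knockout and 1035 to 1558 CPM in wild type. The 4 endothelial genes summed to 783 to 962 CPM in knockout and 654 to 686.0 CPM in wild type, with a median of 0.30, and the 4 B cell genes to 7.89 to 10.6 and 4.64 to 10.2 CPM. No gene of either list was called by edgeR, where 2 endothelial genes were higher at an unadjusted p under 0.05, and DESeq2 called 1 endothelial gene higher. The 5 epithelial genes were too low to test, with sums of 0.238 to 0.440 CPM in knockout and 0.0929 to 0.429 CPM in wild type. Of 8 adipocyte genes Lipe, Retn and Cfd were lower, 3 beside 2.65% of all genes, and none higher, with a median of −0.37. These marker genes were named after their values were seen. The mean log2 CPM of the inducible subunits, less that of wild type, was −0.32, −0.17 and −0.31 in knockout and 0.03, −0.05 and 0.02 in wild type, where every knockout library was below every wild-type one, while the macrophage, fibroblast and endothelial sums were all above. In bulk tissue, fewer cells of a type and less RNA per cell cannot be told apart, and the part of cell makeup in the proteasome values was not tested.

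**Figure D5:**
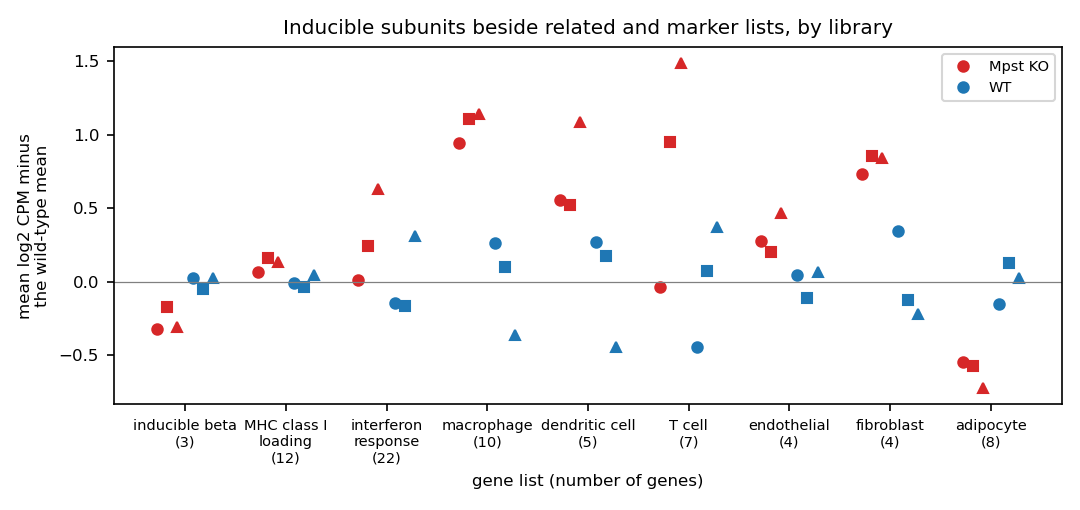
Mean log2 CPM of gene lists minus the wild-type mean (y axis) in each library, Mpst knockout (red) left of wild type (blue), with circles, squares and triangles for replicates 1, 2 and 3 and the number of genes in brackets. The inducible subunits lie at −0.32 to −0.17 in knockout, while the macrophage list lies at 0.95 to 1.14 and the fibroblast list at 0.74 to 0.86.

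Levels between members were compared as RPKM, reads per kilobase of coding-transcript exon in a library scaled as for CPM. The lowest core level was that of Psma2, at 47.4 ± 6.80 RPKM in knockout and 51.8 ± 3.35 RPKM in wild type (SD, n = 3 each), and the highest that of Psmb6, at 218 ± 39.0 RPKM in knockout and 303 ± 34.9 RPKM in wild type. In the cap, Psmd11 was lowest, at 10.6 ± 0.455 RPKM in knockout and 11.5 ± 0.379 RPKM in wild type, and Psmd4 highest, at 123 ± 19.2 RPKM in knockout and 156 ± 23.8 RPKM in wild type. With all annotated exons Psma6 was the highest core gene in both genotypes, at 162 RPKM in knockout and 189 RPKM in wild type, so the order depends on the exon model. Pseudogene copies also touch Psma5, where 21.2% of the 75-base stretches occur in Gm8394, and Psma3, where 14.3% occur in Gm13835.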

How the data were processed

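The authors deposited whole-number counts per gene symbol, one file per library, without normalisation. The submitters' processing notes name HISAT2 2.1.0, HTSeq 0.13.5, DESeq2 1.26 and build mm10, and the labels' protocols name an Illumina TruSeq RNA v2 kit and single-end reads of 75 bases. The annotation and the counter's settings were not given in the sources used here. Lines for unassigned reads entered no library size or test, and reads in no feature made up 8.85% to 14.7% of those in genes, in no feature or ambiguous.

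The fit used edgeR 4.0.16 under R 4.3.3, with filterByExpr, TMM scaling and the robust quasi-likelihood F test, and Benjamini-Hochberg adjustment ran over all 14065 genes with calls under 0.05. Each SE was obtained as log2 fold change over root F, and intervals are at 95%. The code was tested on simulated data. Other settings were relative log expression or upper-quartile scaling, DESeq2 1.42.0, limma-voom (3.58.1), no filter, a mean of at least 10 CPM, no robust estimation, the replicate number as a block, and each library left out. Removal of each library's trend on exon length and GC content, and of both muscle-rich libraries, was added after seeing the data. Core minus cap took log2 CPM at prior count 2, pair ratios prior count 0.5. Exons came from GENCODE M21 on GRCm38. No 2 replicates of a genotype agreed within sampling noise. The members and lists were chosen with earlier results of these data known. Genes named were those called, Psmb5 to Psmb10, the smallest p and both extremes of fold change in each role, untested members, and each related list's calls or smallest p, and any further gene was picked with its value in view. One promoter motif and one related gene list are not reported here.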

Additional observations from a re-analysis of the deposited data

How the results depend on the processing

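Called members changed most with the setting. None was called higher in any fit, and the number called lower was 2 with DESeq2, 12 with the replicate number as a block, 1 with the length and GC trend taken out, 6 with both (beside 5.13% of all genes), and 0 to 6 with each library left out, the 6 without wild-type replicate 3. Under the block 9.16% of all tested genes were called lower. Without knockout replicate 2, knockout replicate 3 or wild-type replicate 2 at most 3 of all genes were called, so those fits say little of single members. Deviations of same-numbered libraries correlated at 0.17, −0.10 and 0.30 for numbers 1, 2 and 3, which does not settle whether they pair. Among the members, replicate 3 was the lowest library of its genotype for most, in 40 in knockout and 37 in wild type. The members' median was −0.072 without both muscle-rich libraries and went from −0.30 to −0.13 over the fits without a single library. Core minus cap stayed between −0.11 and −0.04. Over the same fits and the one without both muscle-rich libraries, the Psmb8 to Psmb5 difference lay between −0.26 and 0.079, Psmb9 to Psmb6 between −0.051 and 0.44 and Psmb10 to Psmb7 between −0.19 and −0.03.

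Signs of small fold changes turned. With the length and GC trend taken out they were 0.10 for Psma5, 0.29 for Psmb5, −0.19 for Psmc6, −0.18 for Psmd14, 0.079 for Psmd7, 0.017 for Psmd8 and −0.21 for Psme4. With the block as well they were 0.10 for Psma5, 0.28 for Psmb5, −0.19 for Psmc6, −0.18 for Psmd14, 0.077 for Psmd7, 0.0071 for Psmd8, −0.20 for Psme4 and 0.0003 for Psmc4. With libraries left out, muscle-rich pair included, the ranges were −0.20 to 0.029 for Psma2, −0.21 to 0.18 for Psma5, −0.17 to 0.094 for Psmb5, −0.38 to 0.0024 for Psmc5, −0.011 to 0.12 for Psmc6, −0.14 to 0.051 for Psmd12, −0.051 to 0.15 for Psmd14, −0.22 to 0.063 for Psmd2, −0.13 to 0.070 for Psmd6, −0.16 to 0.079 for Psmd7, −0.19 to 0.20 for Psmd8, −0.40 to 0.064 for Psmd9 and −0.011 to 0.16 for Psme4. The cause of these changes was not tested. Replicates of a genotype differed by 3.27 to 23.1 times the variance of counting, as the median over genes, so the spread between libraries exceeded counting error. Without knockout replicate 1, the shallowest library, 46 of all genes were called, against 1042 with it.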
